A study of Rattus norvegicus with 8 samples.

Results

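The antioxidant and glutathione enzymes of the rat enamel organ were compared between the secretory and maturation stages of enamel formation. Members were taken by gene symbol. They comprised the glutathione S-transferases, glutathione peroxidases, peroxiredoxins, superoxide dismutases, thioredoxins, thioredoxin reductases and glutaredoxins on the array. Catalase, sulfiredoxin, the genes of glutathione synthesis and reduction, the transcription factor NRF2 (Nfe2l2), its repressor Keap1, and the stress markers Nqo1 and Mt1a completed the list. These were 54 of the 22523 probes on the array, for 52 of its 21558 gene symbols, since Txn1 had 3 probes. Enamel organs were microdissected from lyophilized mandibular incisors of 4 male Wistar Hannover rats, 4 weeks of age. The animals were of 1 genotype and untreated as far as the labels state. Each rat gave 1 secretory-stage and 1 maturation-stage sample, so that 4 arrays of each stage were available, with rats 1 to 4 numbered as the replicates are. Total RNA was hybridized to Illumina RatRef-12 bead arrays, which read 1 colour. For 3 of the 4 maturation samples (replicates 2 to 4) 1 label gives the other stage, while title, description and tissue all give maturation.

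Enamel forms in 2 main steps. In the secretory stage, ameloblasts lay down a protein matrix, and in the maturation stage they remove that matrix and move ions while the mineral grows. Glutathione is a small thiol that glutathione peroxidases oxidize to reduce peroxides and glutathione reductase restores, while transferases attach it to electrophiles. Thioredoxin and peroxiredoxin form a parallel thiol system, and superoxide dismutases convert superoxide to hydrogen peroxide. NRF2 is held in the cytoplasm by KEAP1 and, when released by oxidants or electrophiles, binds antioxidant response elements together with small MAF proteins and raises many of these genes.

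Of the 54 probes, 46 were detected on all 8 arrays, with a detection p-value below 0.05, and 6 on none (Gsta2, Gsta3, Gstm4, Gstm6, Gpx6 and Srxn1). Gpx5 was detected on 1 maturation array and Sod3 on the 4 maturation arrays only. The maturation arrays had summed deposited signals of 13355073 to 16122665 and 11164 to 11450 detected probes, against 11881691 to 12046793 and 10667 to 10941 on the secretory arrays. Markers fitted the labelled stages in direction. The 5 of 5 probes for maturation ameloblast genes found on the array (Klk4, Car6, Slc24a4 and Wdr72) were higher in maturation. Of 4 secretory ameloblast probes, Amelx (log2 -0.53, limma adjusted p = 0.0555) and Ambn (-0.36, with overlap) did not pass the test used below. They stayed at mean log2 signals of 14.41 and 14.20 in maturation. Enam and Mmp20 passed and were lower. Enam nevertheless stood at a log2 signal of 9.08 and 8.22 on maturation replicates 1 and 4, against 5.17 and 5.53 on replicates 2 and 3. Leukocyte markers were also higher in maturation. Their summed background-corrected signal was 11709 to 14977 against 4668 to 5761, and 10 of 17 probes passed the test used below, with Cd68 4.56-fold higher. The erythroid list had no call among 8 probes, and Klf1 and Rhag were undetected. Fibroblast markers summed to 91612 to 97610 against 75065 to 87165, and endothelial markers to 9686 to 11890 against 8109 to 10066. The odontoblast and osteoblast list ran from 9322 to 10884 in maturation and from 4566 to 19214 in secretion. In it Dspp of odontoblasts was detected on the secretory arrays only and was at least 34.0-fold lower in maturation (limma adjusted p = 3.41e-07), and Ibsp was 3.86-fold higher (limma adjusted p = 1.27e-05). Skeletal muscle markers summed to 187 to 923 against 236 to 620, with 5 of 9 probes above 0 and a median log2 fold change of 0.01, and the 1 call was Actn3, 2.98-fold lower (limma adjusted p = 2.57e-06). The part of these shifts in the differences described here was not tested. In whole enamel organs, more cells of a type and more mRNA per cell cannot be told apart.

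Differential expression was assigned at a fold change of at least 1.8 and an adjusted p-value (false discovery rate) below 0.05 in limma, fitted on log2 normalized signals of all probes. In maturation-stage enamel organs 12 member probes of 10 genes were up-regulated and 3 probes were down-regulated. Over all probes 7.75% were called, 4.6% higher and 3.15% lower, and over the probes detected on at least 4 arrays these shares were 9.19% and 6.27%. The 12 up-regulated probes were 22.2% of the members, or 25.5% of those detected on at least 4 arrays. The 3 down-regulated probes were 5.56%, or 6.38% of those detected, which is close to the 6.27% of all detected probes. The up-regulated probes covered Nqo1, Gpx2, Sod1, Sod2, Sod3, Mt1a, Txn1, Gstp1, Nfe2l2 and Gsr, and each was higher in 4 of 4 rats. The down-regulated genes were Gsto2, Gstm3 and Glrx1. By the adjusted p alone 25 member probes were higher and 11 lower, where 12.8% and 14% of all probes were so called. The stages did not overlap for 24 probes that were higher and 12 that were lower, against 13.1% and 14.6% of all probes, and they overlapped for the remaining 18. Gsta3 and Gstm4, among the 12, were detected on no array. Over the 47 members detected on at least 4 arrays, 10 were lower by adjusted p and 10 by separation, with the higher counts unchanged. Of all 11233 such probes, 2991 and 2934 were lower in these ways. The median log2 fold change of the members was 0.17, or 0.34 over the 47 detected on at least 4 arrays, where the median over all probes was -0.01. Computed within rats, the median difference of the members was 0.23, 0.28, 0.24 and 0.22 in rats 1 to 4.

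The balance of higher and lower calls depended on how the arrays were scaled to each other. With median scaling 17 member probes were called higher and 1 lower, and with no normalization between arrays 21 were called higher and 0 lower. Over all 22523 probes 1610 were called higher and 465 lower with median scaling, and 2268 and 332 with no normalization. As reported these were 1035 and 710. The median over all probes moved from -0.01 to -0.07 with median scaling and to 0.13 with no normalization. That over detected probes moved from -0.05 to 0.18 and 0.38, and values under these scalings are also given against that median. Fold changes under the 2 scalings differ by 1 constant over all probes. Such a relative value is therefore the same in both by construction, counts once, and carries no adjusted p. Against the lower median over all probes, rises under both scalings are larger and falls smaller. No called member changed sign under any of these scalings. Leaving out both maturation arrays with more Enam gave 12 members higher and 3 lower, beside 1065 and 779 of all probes.

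**Figure D1:**
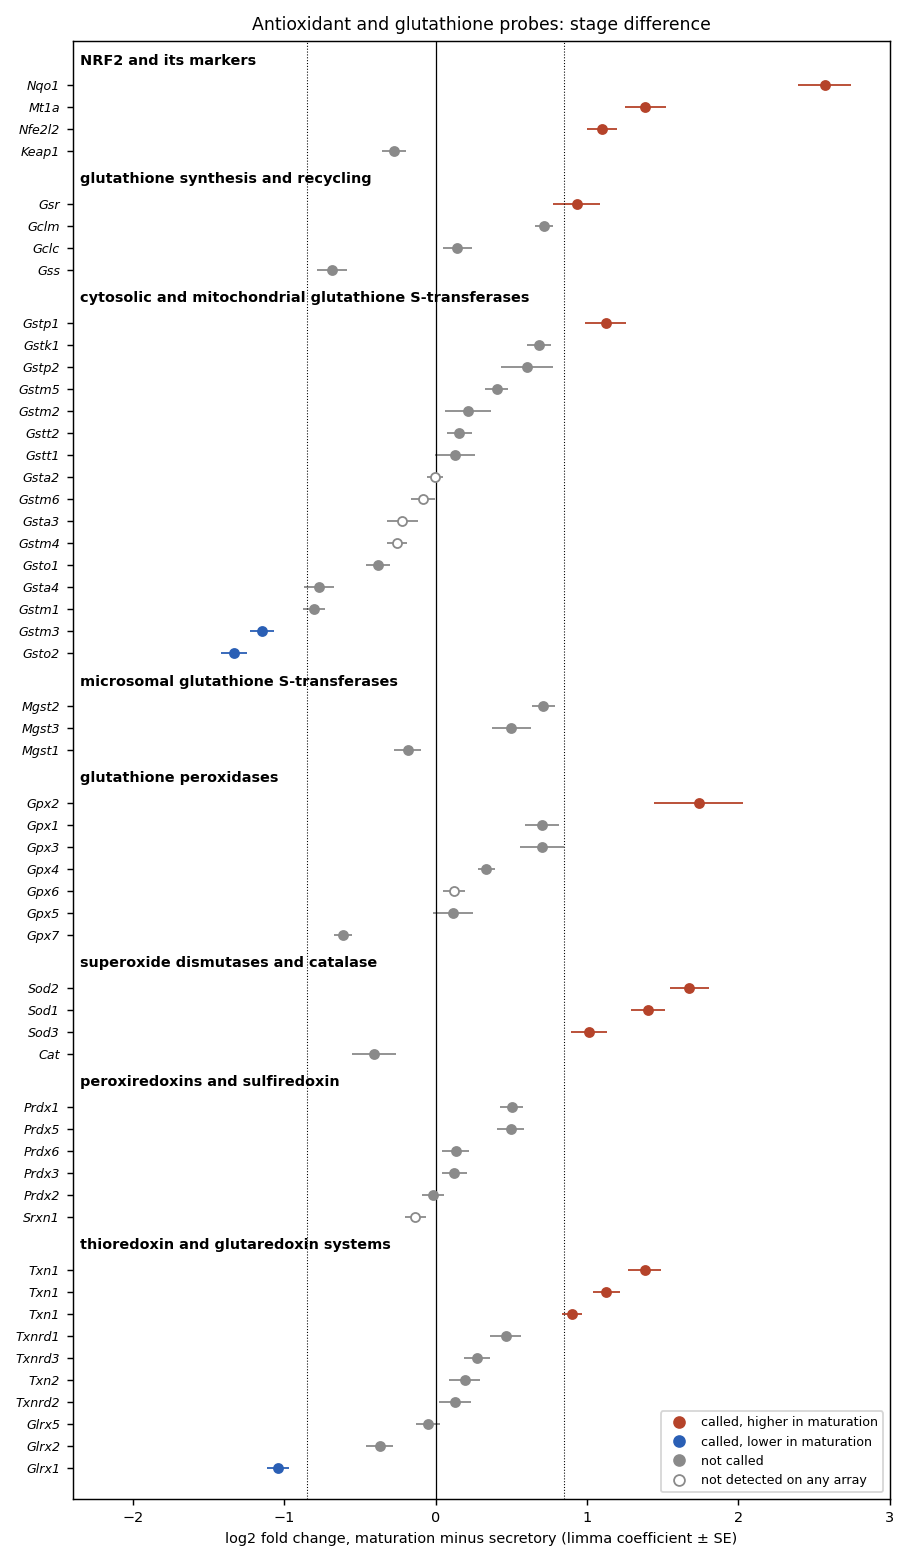
Log2 fold change of each member probe between maturation-stage and secretory-stage enamel organs (x axis, limma coefficient with its standard error, 4 arrays per stage), grouped by role. The first group also holds the NRF2 repressor Keap1 and the metallothionein Mt1a. The dotted lines mark 1.8-fold. Nqo1 lies farthest to the right at 2.57 and Gsto2 farthest to the left at -1.33. The point of Sod3 is the fitted value, although the gene was undetected in the secretory stage.

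**Figure D2:**
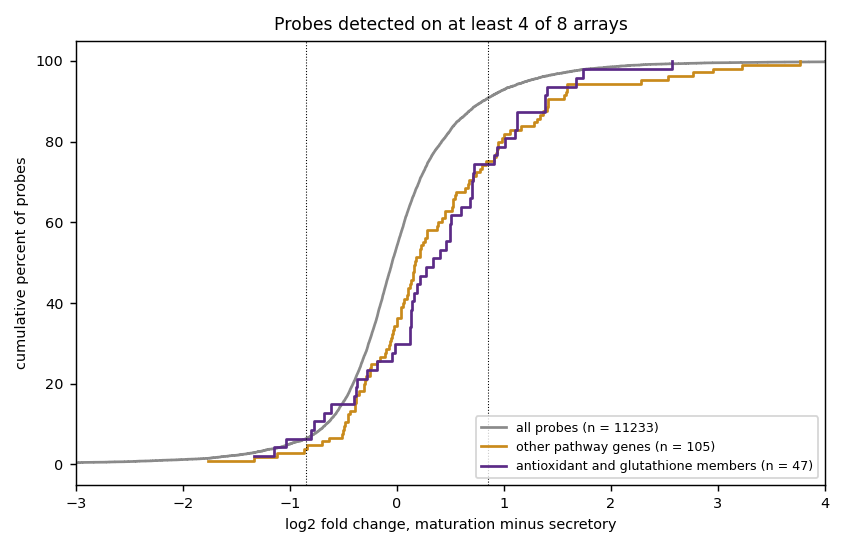
Cumulative percent of probes (y axis) by log2 fold change, maturation minus secretory (x axis), for probes detected on at least 4 of 8 arrays. The curve of the 47 antioxidant and glutathione probes runs to the right of that of all 11233 probes over most of the range shown, with a median of 0.34 against -0.05, and meets it near the left dotted line. The dotted lines mark 1.8-fold.

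Antioxidant response elements were searched in the promoters because NRF2, itself a member, acts through them. The core searched was TGACNNNGC on either strand, so that a match on the other strand reads GCNNNGTCA on the gene's strand, in the 250 bases before the annotated start (RefSeq promoters, GRCr8 assembly). Promoters were found for 44 of the 52 genes, with none for Gsr, Gstm6, Gstp2, Gstt1, Gstt2, Mgst2, Prdx6 and Sod3. A match stood in 9 of the 44 genes (20.5%), and in 3027 of 27457 genes of the whole table (11.0%). Among called genes 5 of 11 held a match, and among members not called 4 of 33. These letters describe the window and do not show binding. The first base of a match lay 13 to 172 bases before the start. The windows of the 5 called genes with a match are given here, 5′ to 3′ on the gene's strand, with the match in capitals. They are shown because these genes combine a called stage difference with the letters searched. No match stood in the window of Nqo1, Sod1, Txn1, Nfe2l2, Gsto2 or Glrx1, which says only that these letters are not within those 250 bases. The windows include the down-regulated Gstm3, named Gstm7 in the current gene table.
Gpx2 (chr6:101230034-101230066, minus strand): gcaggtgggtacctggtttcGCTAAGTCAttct
Gstm3 (chr2:198260320-198260353, minus strand): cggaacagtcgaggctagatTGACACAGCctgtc
Gstp1 (chr1:210769738-210769786, minus strand): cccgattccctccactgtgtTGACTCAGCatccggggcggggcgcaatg
Mt1a (chr19:10833048-10833096, minus strand): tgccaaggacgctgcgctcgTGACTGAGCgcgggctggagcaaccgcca
Sod2 (chr1:50050175-50050223, minus strand): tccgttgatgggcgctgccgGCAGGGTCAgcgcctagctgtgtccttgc
The windows of the members not called show that the same letters precede genes of smaller difference, of which Gclm, Prdx1, Txnrd1 and Gstm5 had log2 fold changes of 0.72, 0.50, 0.46 and 0.40. Gstm5 held 2 matches.
Gclm (chr2:213031943-213031991, plus strand): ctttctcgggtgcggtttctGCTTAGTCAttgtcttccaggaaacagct
Gstm5 (chr2:198219636-198219684, plus strand): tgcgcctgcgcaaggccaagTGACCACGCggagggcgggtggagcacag
Gstm5 (chr2:198219696-198219744, plus strand): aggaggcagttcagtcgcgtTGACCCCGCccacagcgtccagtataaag
Prdx1 (chr5:135383751-135383799, plus strand): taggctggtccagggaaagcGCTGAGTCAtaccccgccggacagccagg
Txnrd1 (chr7:22755954-22756002, minus strand): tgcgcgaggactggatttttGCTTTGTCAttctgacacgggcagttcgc

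Of the group formed by Nfe2l2, Keap1, Nqo1 and Mt1a, 3 of 4 probes were up-regulated, where 4.6% of all probes were, and Keap1 was not. Nqo1 had the largest member difference. Nqo1, the quinone reductase that is a standard read-out of NRF2 activity, had log2 signals of 10.03, 10.75, 10.85 and 10.29 on the maturation arrays and 7.68, 7.89, 8.06 and 8.01 on the secretory arrays, in the order of rats 1 to 4. The stages were far apart, and the 2 lowest maturation values came from the arrays with more Enam. The same held for Sod1, Sod2, Sod3, Gstp1 and Gsr, while on every Txn1 probe these arrays were the highest in maturation. Mt1a, Gpx2 and Nfe2l2 showed neither order. The means were 10.48 ± 0.388 and 7.91 ± 0.168 (SD, n = 4), a 5.93-fold rise (log2 2.57, SE 0.177, limma adjusted p = 4.75e-06), and the difference within rats ran from 2.28 to 2.86. Nfe2l2, which encodes NRF2, gave 11.56, 11.77, 11.36 and 11.47 in maturation and 10.53, 10.32, 10.35 and 10.57 in secretion. Every maturation value lay above every secretory value, and the rise was 2.14-fold (log2 1.10, SE 0.099, limma adjusted p = 2.71e-05). Keap1, the adaptor that directs NRF2 to degradation, stood at 8.90, 8.97, 9.03 and 8.70 against 9.14, 9.26, 9.17 and 9.14. Its log2 difference of -0.28 (limma adjusted p = 0.0255) was below the fold threshold and turned to 0.08 with median scaling and 0.28 with no normalization. Relative to the median of detected probes it stayed below 0 in each, at -0.23 as reported and -0.09 in both others. Relative to the median over all probes it was positive in both others.

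Mt1a (Mt1 in the current gene table) encodes a metallothionein, a small cysteine-rich protein that binds zinc and copper and scavenges oxidants. Its log2 signals were 12.18, 12.08, 12.49 and 12.08 in maturation and 10.50, 10.75, 11.04 and 11.01 in secretion. The stages did not overlap, with a 2.61-fold rise (log2 1.38, SE 0.136, limma adjusted p = 4.84e-05). Metallothionein genes answer to metals through metal response elements, so the Mt1a promoter is shown, with the letters TGCACNC and TGCGCNC, on either strand, in capitals.
Mt1a (chr19:10832976-10833225, minus strand): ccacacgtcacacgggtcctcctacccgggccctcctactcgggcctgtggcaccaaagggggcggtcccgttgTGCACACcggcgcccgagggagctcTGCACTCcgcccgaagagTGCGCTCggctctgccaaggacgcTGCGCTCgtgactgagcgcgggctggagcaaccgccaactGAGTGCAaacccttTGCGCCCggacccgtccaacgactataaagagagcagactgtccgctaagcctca
This window of 250 bases held 6 such matches. At least as many were found in 9 of 33469 promoters of the table (0.0269%), and any match in 22.5% of all genes.

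**Figure D3:**
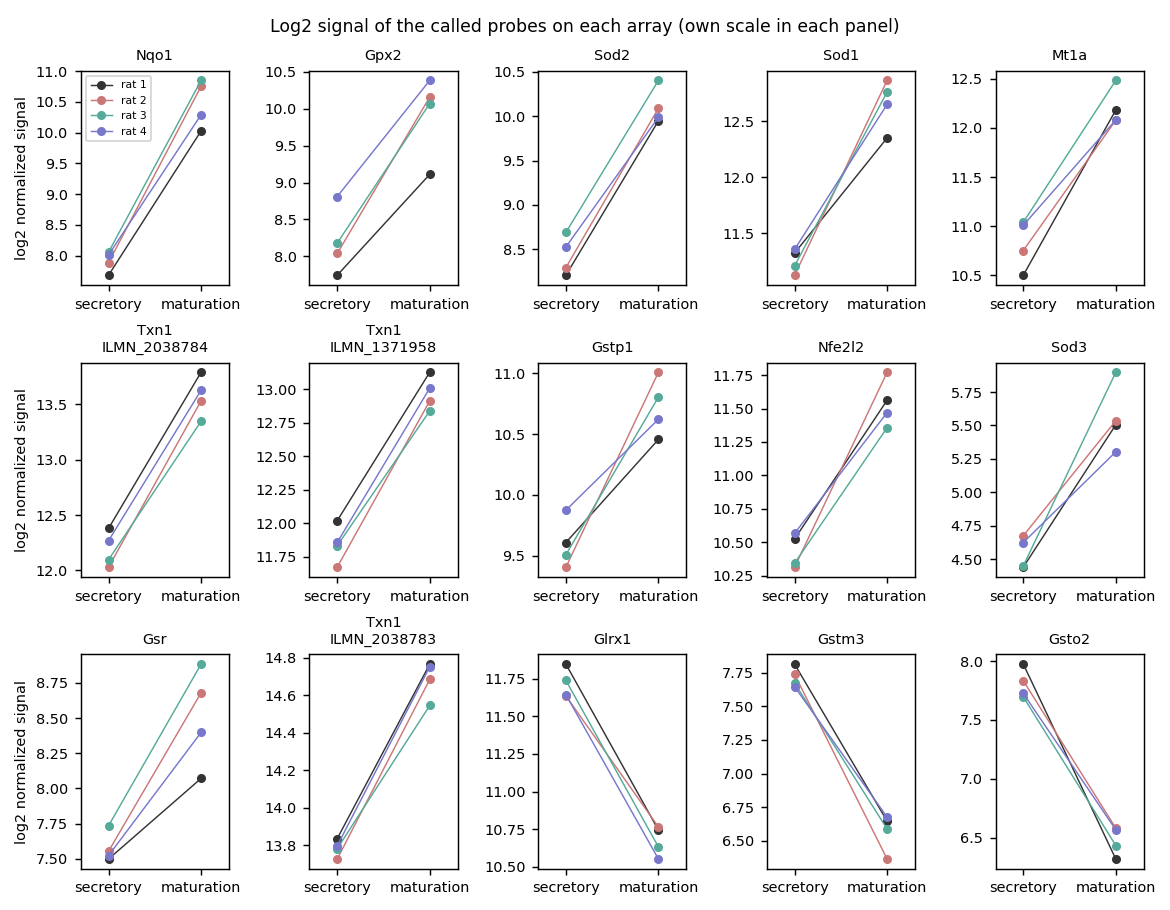
Log2 normalized signal (y axis, own range in each panel, not starting at 0) of the 15 called probes on the 8 arrays, with a line joining both stages of each rat. Every line rises for the 12 up-regulated probes and falls for Glrx1, Gstm3 and Gsto2. The secretory values of Sod3 are below detection.

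All 3 superoxide dismutases were up-regulated and catalase was not. Sod2 encodes the manganese enzyme of mitochondria. It gave 9.95, 10.09, 10.40 and 9.99 in maturation against 8.21, 8.29, 8.69 and 8.53, a 3.20-fold rise (log2 1.68, SE 0.13, limma adjusted p = 1.06e-05). The gap between the stages exceeded the range within either. Sod1, the copper and zinc enzyme of the cytosol, gave 12.35, 12.87, 12.76 and 12.65 against 11.33, 11.13, 11.21 and 11.36. Its rise was 2.64-fold (log2 1.40, SE 0.11, limma adjusted p = 1.10e-05), again with no overlap. Sod3 encodes the secreted enzyme that binds the extracellular matrix. It was detected on the 4 maturation arrays, at 5.51, 5.54, 5.90 and 5.30, and on 0 of the 4 secretory arrays. It was therefore at least 1.43-fold higher (limma adjusted p = 0.000166), a bound taken against the dimmest detected signals of the secretory arrays, and the call rested on the fitted value. That call was lost with an offset of 50, at log2 0.50, and with no background correction, at 0.38. Catalase (Cat), the peroxisomal enzyme that breaks down hydrogen peroxide, gave 8.60, 9.11, 9.28 and 8.87 in maturation and 9.14, 9.52, 9.49 and 9.33 in secretion. The stages overlapped, and the log2 difference of -0.41 (SE 0.146, limma adjusted p = 0.0708) turned to 0.14 with no normalization. Against the median of detected probes it was -0.36 as reported and -0.23 with no normalization. Against the median over all probes it was slightly positive with no normalization.

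Among the 7 glutathione peroxidase probes, Gpx2 alone met the call. Gpx2, an epithelial enzyme best known from the gut, gave 9.11, 10.16, 10.07 and 10.39 in maturation against 7.74, 8.04, 8.18 and 8.81. It varied more between rats than any other called member, with an SD of 0.563 and 0.45, but the lowest maturation value still lay above the highest secretory one. The rise was 3.34-fold (log2 1.74, SE 0.294, limma adjusted p = 0.00152), and 1.37 to 2.12 on the log2 scale within rats. Gpx4, which reduces lipid peroxides in membranes, gave 12.97, 12.93, 12.97 and 13.03 against 12.60, 12.72, 12.65 and 12.60. It passed the adjusted p (0.00125, limma) with a log2 difference of 0.34, short of 1.8-fold. Gpx1 of the cytosol and the secreted Gpx3 had log2 differences of 0.70 each, also with adjusted p below 0.05 and under 1.8-fold. Gpx7, an enzyme of the endoplasmic reticulum, had the opposite sign at -0.61 (limma adjusted p = 5.91e-05). Gpx5 and Gpx6 were at or near background, and their stages overlapped.

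In glutathione synthesis and recycling, the enzyme of recycling met the call. Glutathione reductase (Gsr) gave 8.07, 8.68, 8.88 and 8.40 in maturation and 7.50, 7.55, 7.73 and 7.52 in secretion. The stages did not overlap, although the maturation values spread widely, with the lowest on replicate 1. The rise was 1.91-fold (log2 0.93, SE 0.156, limma adjusted p = 0.00144), close to the threshold. It fell under 1.8-fold without maturation replicate 3, at log2 0.81, with an offset of 50, at 0.83, and with no background correction, at 0.70. Gclm, the modifier subunit of glutamate-cysteine ligase, gave 11.44, 11.41, 11.43 and 11.46 against 10.59, 10.74, 10.80 and 10.74. Its rats agreed closely and the stages were separate, but the difference of 1.64-fold (log2 0.72, SE 0.0595, limma adjusted p = 1.58e-05) was below the fold threshold. It passed that threshold with median scaling, at log2 0.99, and with no normalization, at 1.19. At 0.81 in both against the median of detected probes it did not, but against the median over all probes it did. Gclc, the catalytic subunit of the same ligase, gave 8.81, 9.08, 9.11 and 8.91 against 8.67, 8.77, 8.89 and 9.02. These values overlapped, with a log2 difference of 0.14 (SE 0.0955, limma adjusted p = 0.368). Gss, which adds glycine in the second step, had a log2 difference of -0.68 with no overlap (limma adjusted p = 0.000543), and was not called.

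The glutathione S-transferases, which join glutathione to electrophiles, had calls in both directions. Of 16 cytosolic and mitochondrial probes 1 was up-regulated (6.25%) and 2 were down-regulated (12.5%), beside 4.6% and 3.15% of all probes. These calls were among the 12 probes detected, beside 9.19% and 6.27% of all detected probes. They are few probes, and the median log2 fold change of the 16 was -0.04. The pi class member Gstp1, a widespread epithelial form, gave 10.46, 11.01, 10.80 and 10.62 in maturation and 9.61, 9.41, 9.51 and 9.87 in secretion. Its stages were separate, and the rise was 2.18-fold (log2 1.12, SE 0.134, limma adjusted p = 0.000169). Gsto2 belongs to the omega class, whose enzymes reduce dehydroascorbate and act as thiol transferases. It gave 6.32, 6.58, 6.43 and 6.57 in maturation and 7.97, 7.83, 7.70 and 7.73 in secretion. It was 2.52-fold lower (log2 -1.33, SE 0.0853, limma adjusted p = 2.96e-06), and the arrays of each stage lay close together. Gsto1, its neighbour on chromosome 1 with 0 protein-coding genes between, gave 12.41, 12.51, 12.23 and 12.49 against 12.90, 12.68, 12.76 and 12.84. These sets were separate, with a log2 difference of -0.38 (limma adjusted p = 0.00538) that was under 1.8-fold.

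The mu class probes differed in sign along the cluster on chromosome 2. Gstm3 gave 6.65, 6.36, 6.59 and 6.68 in maturation and 7.81, 7.74, 7.67 and 7.65 in secretion. It was 2.22-fold lower with no overlap (log2 -1.15, SE 0.0797, limma adjusted p = 5.02e-06). Gstm5, which lies in the same cluster with only Gstm6 between, stood at log2 0.40 (limma adjusted p = 0.00296), and Gstm1 at -0.81 (limma adjusted p = 3.09e-05), both short of 1.8-fold. Gstm2, next to Gstm1, overlapped between the stages, and Gstm4 and Gstm6 were not detected. These are array symbols, and Gstm4 is named Gstm3 in the current gene table. In the alpha class Gsta4, which acts on 4-hydroxynonenal from lipid peroxidation, stood at -0.77 (limma adjusted p = 0.000279) with no overlap. Gsta2 and Gsta3 (Gsta1 in the current gene table) were not detected. Gstk1 of mitochondria and peroxisomes stood at 0.68 and Gstp2 at 0.60, and both theta class members overlapped between the stages. The Gstm3 call was lost with no normalization, at -0.65, with no background correction, at -0.70, and with median scaling, at -0.85. Against the median of detected probes it was -1.10 as reported and, by construction alike, -1.02 with median scaling and no normalization, past 1.8-fold. Against the median over all probes it was short of 1.8-fold in both. Neither reading makes a call. The Gsto2 call was lost with no background correction, at -0.81, and with no normalization, at -0.83, which is -1.21 against the median of detected probes. Probe sequences were not used here, so hybridization to near-identical transferase copies was not tested. None of the 3 microsomal transferases met the call. Mgst1, of the endoplasmic reticulum and outer mitochondrial membrane, gave 10.00, 10.07, 9.87 and 9.95 against 10.14, 10.21, 9.94 and 10.35. The sets overlapped, with a log2 difference of -0.18 (limma adjusted p = 0.187). It turned to 0.12 with median scaling and 0.32 with no normalization, or -0.06 in both against the median of detected probes. Against the median over all probes it was positive in both. Mgst2 and Mgst3 were at 0.71 and 0.50, with adjusted p below 0.05.

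Among the thioredoxin and glutaredoxin systems Txn1 rose and Glrx1 fell. Txn1, the cytosolic thioredoxin, had 3 probes, which share a transcript and are not replicates. Probe ILMN_2038784 gave 13.79, 13.53, 13.35 and 13.63 in maturation against 12.38, 12.03, 12.10 and 12.27 (2.60-fold, log2 1.38, SE 0.109, limma adjusted p = 1.19e-05). Probe ILMN_1371958 gave 13.13, 12.91, 12.84 and 13.01 against 12.02, 11.67, 11.83 and 11.86 (2.18-fold, log2 1.13, SE 0.0896, limma adjusted p = 1.22e-05). The stages were separate on both. Probe ILMN_2038783, at 14.77, 14.68, 14.55 and 14.75 against 13.83, 13.73, 13.78 and 13.80, showed the smallest rise (1.87-fold, log2 0.90, SE 0.0648, limma adjusted p = 6.34e-06). Its deposited maturation signals of 22227 to 29998 were near the highest signals of the arrays, 30310 to 33855, and its call was lost with cyclic loess, at log2 0.79, and median scaling, at 0.78, or 0.60 against the median of detected probes. Glrx1 (Glrx in the current table), the cytosolic glutaredoxin that removes glutathione from protein thiols, gave 10.74, 10.76, 10.63 and 10.55 in maturation and 11.85, 11.63, 11.74 and 11.64 in secretion. It was 2.06-fold lower with no overlap (log2 -1.04, SE 0.0736, limma adjusted p = 5.68e-06). Its difference was below 1.8-fold with median scaling, at -0.79, and with no normalization, at -0.59. Against the median of detected probes it was -0.97 in both and past 1.8-fold. Against the median over all probes it was short of 1.8-fold in both. Glrx2 of mitochondria stood at -0.37 (limma adjusted p = 0.011), at 0.07 under no normalization, which is -0.30 against the median of detected probes, and Glrx5 overlapped. The thioredoxin reductase Txnrd1, a selenoenzyme of the cytosol, stood at 0.46 (limma adjusted p = 0.00788). Txnrd3 was at 0.27 with no overlap, and the mitochondrial Txn2 and Txnrd2 at 0.19 and 0.13 with overlap.

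No peroxiredoxin met the call. Prdx2, a cytosolic enzyme abundant in red cells, gave 13.65, 13.79, 13.87 and 13.88 in maturation and 13.82, 13.91, 13.82 and 13.70 in secretion. The values were intermixed, with a log2 difference of -0.02 (SE 0.0732, limma adjusted p = 0.925). Of the erythroid markers 6 of 8 probes were below 0 and none was called, with Hbb at 0.15 (limma adjusted p = 0.65) and Alas2 at -1.07 with no overlap (limma adjusted p = 0.0578), and their part in the Prdx2 values was not tested. Prdx1 and Prdx5 were separate between the stages at 0.50 and 0.49, under 1.8-fold with adjusted p below 0.05. Prdx3 of mitochondria and Prdx6 overlapped at 0.12 and 0.13. Srxn1, which repairs over-oxidized peroxiredoxins, was not detected on any array.

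**Figure D4:**
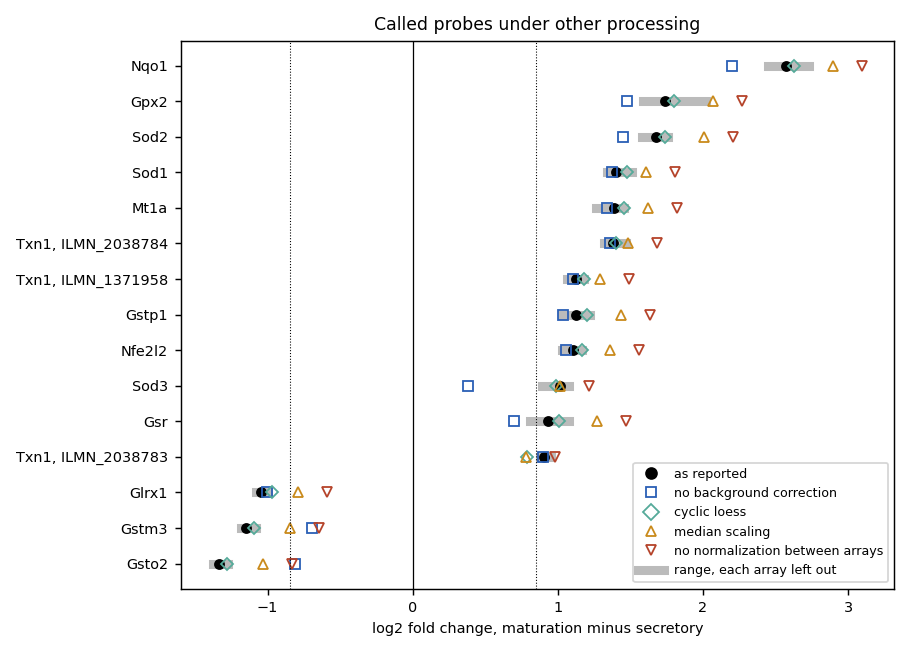
Log2 fold change, maturation minus secretory (x axis), of the 15 called probes as reported and under 4 other ways of processing the same signals, with a grey bar for the range when each array is left out in turn. The dotted lines mark 1.8-fold. All points stay on their side of 0, and Sod3, Gsr, 1 Txn1 probe and the down-regulated genes cross the 1.8-fold line under at least 1 of these settings.

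Other genes that handle oxidants and glutathione were counted from 4 lists. Of 145 names, 16 had no probe, and the others gave 131 probes for 128 genes. In maturation-stage enamel organs 26 of these probes were up-regulated (19.8%) and 4 were down-regulated (3.05%), beside 4.6% and 3.15% of all probes and 9.19% and 6.27% of detected probes. Among NRF2 partners and further NRF2 targets 12 of 41 probes were higher (29.3%) and 1 lower (2.44%). The 41 probes are for 39 genes, and several of the higher ones are for Sqstm1, so they are not replicates. Hmox1, the heme oxygenase that NRF2 and the repressor BACH1 control, gave 10.44, 11.06, 10.82 and 10.48 against 8.35, 8.08, 8.09 and 8.14, a 5.79-fold rise (log2 2.53, SE 0.137, limma adjusted p = 1.01e-06). It is also strongly expressed by macrophages, whose markers were higher in maturation, and their part in its rise was not tested. Abcc3, an exporter of conjugates, was the 1 lower target at log2 -1.12 (SE 0.0974, limma adjusted p = 2.14e-05).

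In glutathione supply, breakdown and export 2 of 27 probes were higher (7.41%), a share between those of all probes and of detected probes, and 1 was lower. Anpep, an aminopeptidase that splits the dipeptide left from glutathione, rose 6.82-fold (log2 2.77, SE 0.159, limma adjusted p = 1.50e-06). Ggct, which opens gamma-glutamyl peptides and was listed as RGD1304876, was 3.41-fold lower at log2 -1.77 (SE 0.099, limma adjusted p = 1.26e-06). In both the 4 arrays of each stage were separate. Of 36 probes for other oxidant defence and thiol repair 6 were higher (16.7%) and 0 lower. Mt3, a second metallothionein, gave 11.52, 10.76, 11.28 and 10.37 against 6.69, 7.59, 7.20 and 7.38, the largest mean difference of the 4 lists (13.6-fold, log2 3.77, SE 0.264, limma adjusted p = 5.32e-06). Pon3, a lactonase, rose 7.76-fold (log2 2.96, SE 0.117, limma adjusted p = 1.72e-07).

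Among sources of oxidants 6 of 27 probes were higher (22.2%) and 2 lower (7.41%), beside 9.19% and 6.27% of detected probes. Xdh, the xanthine dehydrogenase and oxidase listed on the array as LOC497811, gave 11.91, 11.98, 11.83 and 11.83 against 8.65, 8.81, 8.54 and 8.65. The rats were nearly alike within each stage, and the rise was 9.33-fold (log2 3.22, SE 0.0713, limma adjusted p = 1.04e-08). The dual oxidases, which make hydrogen peroxide at the cell surface, had a call each way. Duox2 was 2.53-fold lower (log2 -1.34, SE 0.0601, limma adjusted p = 3.48e-07), and Duox1, singled out after its values were seen, was 2.42-fold higher (log2 1.28, SE 0.0667, limma adjusted p = 8.54e-07). Maob, a mitochondrial monoamine oxidase, was 1.83-fold lower (log2 -0.87, SE 0.123, limma adjusted p = 0.000485).

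**Figure D5:**
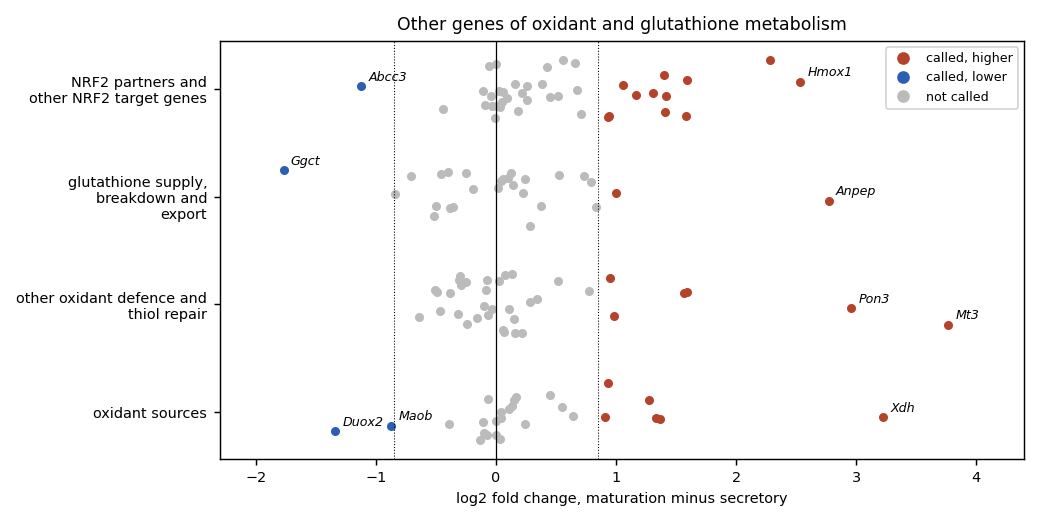
Log2 fold change, maturation minus secretory (x axis), of 131 probes in 4 lists of other genes for oxidants and glutathione, spread vertically within a list for legibility. The dotted lines mark 1.8-fold, red points are called higher and blue points lower. Mt3, Xdh, Pon3, Anpep and Hmox1 lie farthest to the right, from 3.77 to 2.53.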

How the data were processed

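Both stages of 4 rats were hybridized to RatRef-12 arrays. The authors deposited the intensity of each probe, averaged over its beads and neither background-corrected nor normalized. Each deposited intensity came with its detection p-value, bead number (18 to 73 for the members, which limits the precision) and bead standard error. The bead standard error was at most 5.43% of the signal for called members. In the study's methods the authors normalized and log-transformed the raw values in R, but the deposited table holds the raw intensity, and the bead summary software is not given in the sources used here.

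Signals were corrected with limma 3.58.1 (R 4.3.3) by neqc, with negative controls inferred from detection p-values, an offset of 16 and quantile normalization, then log2-transformed. All 22523 probes were fitted with lmFit and eBayes without pairing, with Benjamini-Hochberg adjustment, and called at an adjusted p below 0.05 and at least 1.8-fold. The fits were tested on simulated data. The replicate number marks the rat, and deviations from the stage means correlated at 0.195, 0.129, 0.219 and 0.234 within rats over 11233 probes. The rat as a block, other background corrections, offsets and normalizations, a detection filter, the Student test that the methods name, no fold threshold, lower bounds for undetected probes and omission of each array were tried. Leaving out both maturation arrays with more Enam was chosen after seeing the data. For 4 against 4 arrays the smallest exact permutation p is 0.0286 (70 splits).

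Named genes were the called members, the brightest member of each role, Nfe2l2, Keap1, Nqo1, Gclc, Gclm, Cat and Sod1 to Sod3, and up to 5 rises and 5 falls among other pathway genes, while remaining members are given by counts and short values. The members and lists were chosen with earlier results of these data known. Current symbols came from a GRCr8 gene table by gene ID, which matched 51 of the member genes, and 6 symbols differed. Promoters were read from RefSeq (GRCr8). Python 3.11.15 and pandas 2.3.3 were used.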

Additional observations from a re-analysis of the deposited data

How the results depend on the processing

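Replicate number marked the rat, and with the rat as a replicate block the same 15 member probes were called, with 12 higher and 3 lower, and no named member changed its call. All called members kept their direction under every setting tried. Without background correction 1 member probe was called lower and 19 probes of other pathway genes were called, 16 of them higher. Of all 22523 probes 528 were then higher and 399 lower. The members' median log2 fold change was 0.15. That median was 0.26 with cyclic loess, 0.51 with median scaling, 0.70 with no normalization, 0.34 over detected probes and 0.27 without both maturation arrays with more Enam. With median scaling 1 member probe and 2 other probes were called lower, beside 465 of all 22523 probes. With no normalization 21 member probes and 40 other probes were called higher, and 0 and 1 lower. Of all 22523 probes 2268 were then higher and 332 lower, against 1035 and 710 as reported. Without a fold threshold 36 member probes (25 higher, 11 lower) and 65 other probes (45 higher, 20 lower) were called. Of all probes 12.8% were then higher and 14% lower. Leaving out each array gave 14 to 16 member probes called (11 to 12 higher, 3 to 4 lower), 28 to 32 other probes (24 to 27 higher, 3 to 5 lower) and a median of 0.15 to 0.22. Of all probes 1705 to 1806 were then called. The cause of these shifts was not tested.

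Among members not called, Keap1 turned to 0.084 with median scaling and 0.28 with no normalization, Mgst1 to 0.12 and 0.32, and Cat to 0.14 with no normalization. Prdx2 turned to 0.13 with no normalization and 0.0169 without both arrays with more Enam, and ranged from -0.0528 to 0.0356 with each array left out, above 0 without maturation replicate 1 or secretory replicate 2. The share of higher among all calls was 59.3% as reported, 77.6% with median scaling and 87.2% with no normalization. Probes not above background, such as Sod3 in the secretory stage, allow a bound only.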
